A study of Mus musculus with 93 samples.

Results

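The genes described here are 43 interferon-induced genes of the mouse, chosen by symbol and all found among the 30235 genes of the deposited tables. They were followed in 93 RNA-seq libraries of female mice from 12 groups, set by tissue, genotype and age. Efemp1ki/ki mice, called knock-in, carry a homozygous knock-in at Efemp1 and model Doyne honeycomb retinal dystrophy, a maculopathy with deposits beneath the retinal pigment epithelium. Wt mice, called wild type, are their controls, and no treatment was given to either genotype. From each of these, posterior eyecup (the eye left after lens and retina are removed) and neural retina were taken at 3, 9 and 17 months. Each group held 8 libraries, except for 7 from knock-in eyecups at 17 months and 6 from wild-type eyecups at 3 months. Libraries are called by the number in their title. The labels do not say that each library came from a separate mouse, nor which eyecup and retina shared one, so p-values measure the spread between libraries only.

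Interferons are secreted proteins, and those of type I are made by cells that sense foreign or misplaced nucleic acid. Type I interferons act through the receptor Ifnar1/Ifnar2 and the kinases Jak1 and Tyk2 to activate a complex that contains Stat2 and Irf9. That complex binds the interferon-stimulated response element (ISRE) in the promoters of target genes. Interferon gamma acts mainly through another promoter element, the gamma-activated site (GAS). In the retina, microglia and other glia are known sources and targets of these signals. The 43 genes comprised 6 sensors of nucleic acid and their partners, 5 oligoadenylate synthetase genes, 3 Ifit genes, 7 genes of the Isg15 system and other antiviral effectors, 4 transcription factors, 8 interferon-inducible GTPases and 10 others.

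Promoter sequence was available for 32 of the 43 genes, from 250 bases before to 50 bases after the transcription start (RefSeq, GRCm38.p6). The ISRE was searched as GAAA, any 2 bases and GAAA, or on the other strand as TTTC, any 2 bases and TTTC. It was present in 18 of the 32 promoters (56.2%), against 3.77% of the promoters of 12957 tested genes and 3.44% of all 32851 windows of that length. The GAS, searched as TTCNNNGAA, which is its own reverse complement, was present in 9 of the 32 (28.1%), against 8.39% of tested genes and 8.3% of all windows. The motifs overlapped in 1 promoter, that of Bst2. A match is a description of the letters in this window and says nothing of binding. The sequences below are those whose genes recur in the results, each 5′ to 3′ on the strand of the gene with the motif in capitals.
Isg15, chr4:156200865-156200906, minus strand, with 3 overlapping motifs: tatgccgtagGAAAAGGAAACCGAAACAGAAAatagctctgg
Ifit1, chr19:34640775-34640804, plus strand: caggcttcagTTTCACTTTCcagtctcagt
Ifit1, chr19:34640794-34640823, plus strand: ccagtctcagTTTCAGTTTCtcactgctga
Ifit3, chr19:34583363-34583392, plus strand: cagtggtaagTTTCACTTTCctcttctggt
Ifit3, chr19:34583397-34583426, plus strand: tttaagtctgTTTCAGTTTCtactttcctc
Rsad2, chr12:26456553-26456582, minus strand: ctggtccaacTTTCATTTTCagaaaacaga
Oas1a, chr5:120907520-120907555, minus strand: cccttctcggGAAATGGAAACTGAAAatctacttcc
Bst2, chr8:71537577-71537612, minus strand: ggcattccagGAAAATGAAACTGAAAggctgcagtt
Gbp2, chr3:142620594-142620623, plus strand: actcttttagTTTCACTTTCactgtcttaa
Stat2, chr10:128270266-128270295, plus strand: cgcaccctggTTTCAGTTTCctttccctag
Trim34a, chr7:104244457-104244486, plus strand: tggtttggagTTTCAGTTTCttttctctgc
Ddx58, chr4:40239804-40239833, minus strand: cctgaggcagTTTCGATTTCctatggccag
Igtp, chr11:58199512-58199541, plus strand: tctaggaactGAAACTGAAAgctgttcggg
Irgm2, chr11:58214903-58214932, plus strand: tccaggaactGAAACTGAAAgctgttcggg
In most of these the first motif began before the start, from 20 bases (Oas1a) to 222 bases (Stat2) upstream, whereas in Ddx58 and Trim34a it lay 2 and 10 bases after it. Between the promoters of Igtp and Irgm2, which encode related GTPases, 184 of 270 aligned bases were identical (68.1%). The 14 genes with promoter sequence but no exact ISRE were Cmpk2, Dtx3l, Ifi35, Ifi44, Ifi47, Ifit2, Irf1, Irf7, Irf9, Lgals3bp, Oasl1, Oasl2, Trim25 and Xaf1, of which Ifi35, Ifit2 and Irf1 held a GAS.

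The eyecup libraries held 14236127 to 35297627 estimated counts each and the retina libraries 9218127 to 37475492. The 43 genes together took 0.1148% to 0.274% of an eyecup library (median 0.1546%) and 0.0281% to 0.0937% of a retina library (median 0.03385%). All 43 passed the filter on low counts in the eyecup and 40 in the retina, where Zbp1, Mx1 and Oas3 did not. Rod markers summed to 161 to 21300 CPM (counts scaled to library size) in eyecups and to 47500 to 65200 CPM in retinas. Ocular surface keratins and related markers summed to 20400 to 58700 CPM in eyecups and 4.61 to 326 CPM in retinas, and pigment epithelium markers to 533 to 2230 CPM in eyecups and 229 to 413 CPM in retinas. In retinas most of the pigment epithelium sum (median 268 CPM) came from Otx2. Its median was 206 CPM in retinas and 41.3 CPM in eyecups, so the retina sum mainly follows that gene. Counts were not whole numbers in 85 to 91 of the 93 libraries for Trim34a, Gbp7, Oas1a, Ifit3, Igtp and Irgm2, so their reads may be shared with near copies or, for Igtp and Irgm2, with each other. These bulk libraries cannot tell fewer cells of a type from less RNA per cell.

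Within their groups, 8 libraries stood apart in the mean log2 CPM of the tested genes, by more than 3 scaled median absolute deviations from the group median. In knock-in eyecups at 9 months, library 7 had a mean of 5.69 against a group median of 4.48 and was the highest of its group for 42 of 43 genes. In knock-in eyecups at 17 months, library 4 was low, at 4.01 against a group median of 4.77, and had no gene above the median of the other libraries. In knock-in retinas at 17 months, library 5 reached 3.94 and library 6 reached 3.38, against a group median of 2.47. The other retina libraries that stood apart were knock-in library 8 at 9 months (3.44, median 2.29), knock-in library 7 at 3 months (2.39, median 1.91), wild-type library 6 at 3 months (2.84, median 1.95) and wild-type library 5 at 17 months (2.72, median 2.22). The 4 retina libraries with the highest means were all knock-in, as were 8 of the 10 highest. In the eyecup, knock-in libraries made up 5 of the 10 highest.

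**Figure D1:**
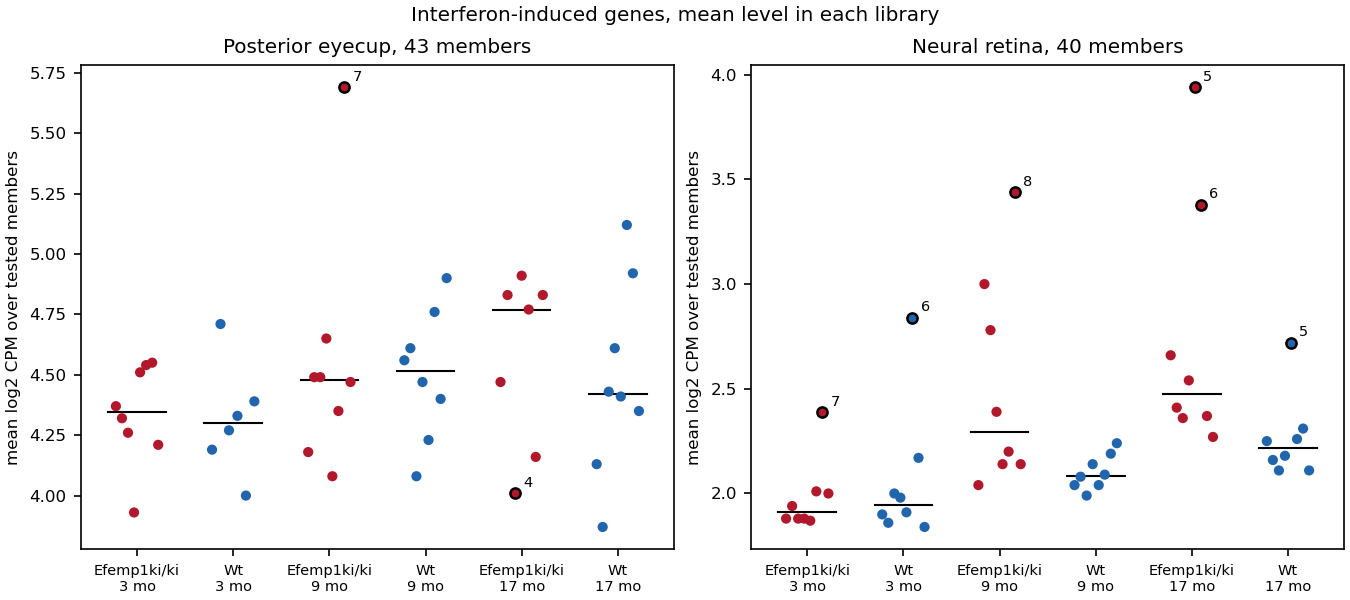
Mean log2 CPM over the tested interferon-induced genes in each library, with knock-in (Efemp1ki/ki, red) left of wild type (Wt, blue) at each age; horizontal lines are group medians, and outlined, numbered points are the 8 libraries that stood apart. In the retina the 3 highest points, at 3.94, 3.44 and 3.38, are knock-in libraries of 9 and 17 months.

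The excess in these libraries ran through most of the genes but was uneven among them. The libraries were picked by the mean of these same genes. A broad excess therefore follows in part from that choice, and the counts below only describe it. Retina library 5 of knock-in mice at 17 months exceeded the median of the other 7 for 40 of 40 genes, and by more than 1 log2 unit for 26, with a median excess of 1.32. Rsad2, which encodes the antiviral enzyme viperin, was at 24.2 CPM in it against a median of 2.58 CPM in the others. Ifit1, a binder of viral RNA, was at 42.9 CPM against 5.14 CPM, and Mx2 at 11.9 CPM against 1.24 CPM. Mx2 belongs to a family of dynamin-like antiviral GTPases and is annotated in these data as a polymorphic pseudogene. Library 6 of that group also exceeded the median of the others for 40 of 40 genes, with Rsad2 at 14.5 CPM and Ifit1 at 24.3 CPM. Genes were also ranked by excess in each library, among tested genes whose mean log2 CPM in the tissue was not negative. That set left out low genes such as Iigp1 and Ifi44 in the retina. Of its 50 genes with the largest excess, 22 were interferon-induced genes of this list in library 5, and 10 were in library 6. The same count was 13 in knock-in library 8 at 9 months, 17 in wild-type library 6 at 3 months, 7 in knock-in library 7 at 3 months and 5 in wild-type library 5 at 17 months. Pigment epithelium markers Rpe65, Lrat, Rgr and Rdh5 were also among the top 50 of knock-in library 8 at 9 months and of wild-type library 5 at 17 months. The summed pigment epithelium markers, mostly Otx2, were highest of their group in each, at 381 CPM against at most 302 CPM in the other knock-in libraries of 9 months, and at 352 CPM against at most 347 CPM in the other wild-type libraries of 17 months. The mean log2 CPM of the markers, in which each counts alike, was 4.27 against at most 3.46, and 4.05 against at most 4. The ocular surface markers Krt15 (excess 2.41) and Krt13 (1.88) were also in the top 50 of knock-in library 8 at 9 months. Krt15 (2.83) led that of knock-in library 7 at 3 months. The ocular surface sums of these groups peaked elsewhere, in libraries 2 and 6. The macrophage marker Mrc1 (1.79) and the MHC class II genes H2-Eb1 (1.47) and Cd74 (1.43) were in that of knock-in library 6 at 17 months. The microglia and macrophage sum of its group peaked in library 4. The part of any of these cells in the excess was not tested.

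In the knock-in eyecup library 7 of 9 months, all 43 genes exceeded the median of the others. Of these 25 did so by more than 1 log2 unit, against 2.24% of all tested genes. In the same ranking, 11 of the 43 were among its top 50 genes. Mx1, a nuclear antiviral GTPase in mice, was at 14.2 CPM in it against 1.5 CPM in the others, and Oas3 at 37.6 CPM against 7.55 CPM. Its rod markers summed to 161 CPM, the lowest of its group, and its ocular surface markers to 54400 CPM, the highest of its group. The low knock-in eyecup library 4 of 17 months had the highest rod marker sum of its group, 17100 CPM. The part of these tissues in either library was not tested. Over 40 genes in the retina, the median within-group SD was 0.41 log2 units, against 0.155 over all tested genes. It was 0.296 without the libraries that stood apart, against 0.156 over all tested genes. In the eyecup the medians were closer, at 0.396 over the 43 genes and 0.325 over all tested genes. Among retina genes the spread was widest for Rsad2 (0.791) and narrowest for Trim25 (0.101) and Stat2 (0.126).

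**Figure D2:**
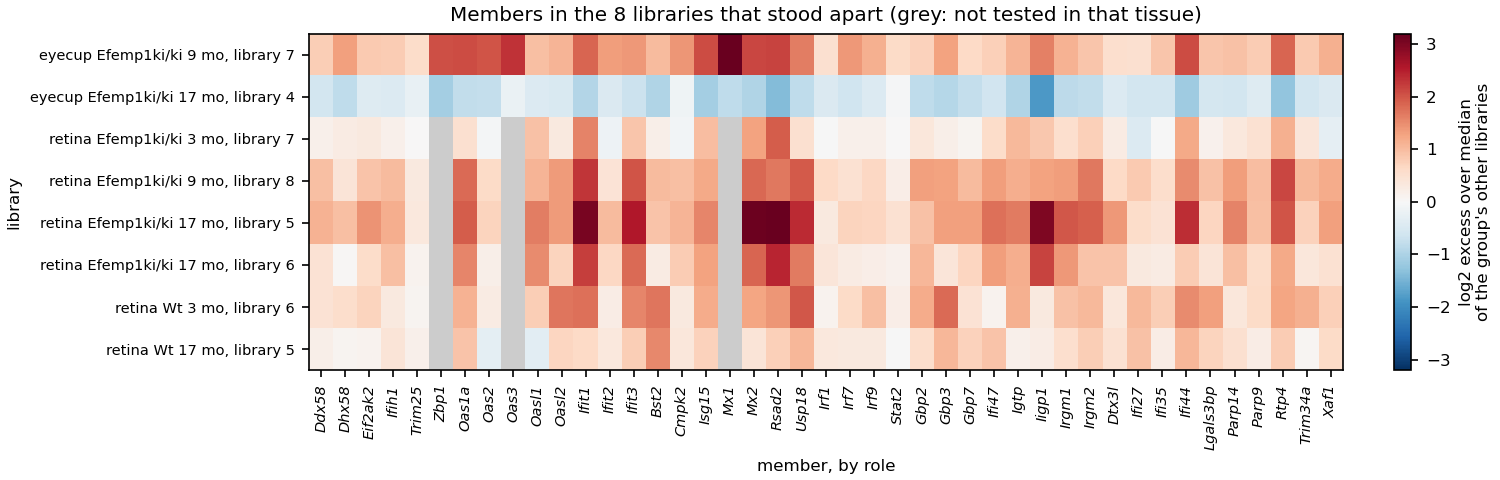
Log2 excess of each interferon-induced gene over the median of the group's other libraries, for the 8 libraries that stood apart (rows); genes are ordered by role, red is above and blue below the other libraries, and grey marks genes not tested in the retina. Rsad2, Ifit1 and Mx2 have the darkest cells in the retina, up to 3.17 log2 units, while Stat2 and Trim25 stay pale.

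Levels were compared between tissues on the deposited TPM, which allow for gene length. The median over the 43 genes was 18.8 TPM in eyecups and 5.19 TPM in retinas. The most abundant genes in the eyecup were Irf1, a transcription factor of the interferon gamma response (152 TPM), Ifi27, a small hydrophobic membrane protein (143 TPM), and Ifit3, which stabilises IFIT1 in human cells (75.2 TPM). In the retina they were Ifi27 (40.9 TPM), Stat2 (33.5 TPM) and Ifit3 (28.9 TPM). The lowest was Mx2 at 1.23 TPM in eyecups and Oas3 at 0.146 TPM in retinas.

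In the joint edgeR fit, 41 of the 43 genes were higher in eyecup than in retina and 2 were lower at an adjusted p under 0.05 (edgeR quasi-likelihood test, Benjamini-Hochberg), the threshold for every gene called below. Of all 19210 genes tested, 47.7% were called higher and 47% lower, so a call between tissues is common to nearly every gene. The size differed: the median log2 difference was 2.81 for the 43 genes and 0.01 for all genes. Oasl1, which in mice restrains translation of Irf7, differed most, by 7.38 ± 0.12 (SE) log2 units. Its level spanned 32.7 to 122 CPM in knock-in eyecups of 9 months and 0.14 to 1.03 CPM in knock-in retinas of that age, with no overlap between tissues. Irf1 was higher by 4.76 ± 0.06 and Oas3 by 5.52 ± 0.15. The lower genes were the signalling factor Stat2 (-0.12 ± 0.03) and the mitochondrial nucleotide kinase Cmpk2 (-0.21 ± 0.07). On the TPM scale Stat2 averaged 18.8 in eyecups and 33.5 in retinas, and Cmpk2 averaged 8.08 in eyecups and 15 in retinas. Microglia and macrophage markers were also higher in eyecups for 14 of 14 genes, with a median of 2.99. The tissues differed in other cells too: ocular surface markers summed to 20400 to 58700 CPM in eyecups and 4.61 to 326 CPM in retinas. Pigment epithelium sums were also higher in eyecups, and rod sums were higher in retinas. The part of any of these cells in the difference was not tested.

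**Figure D3:**
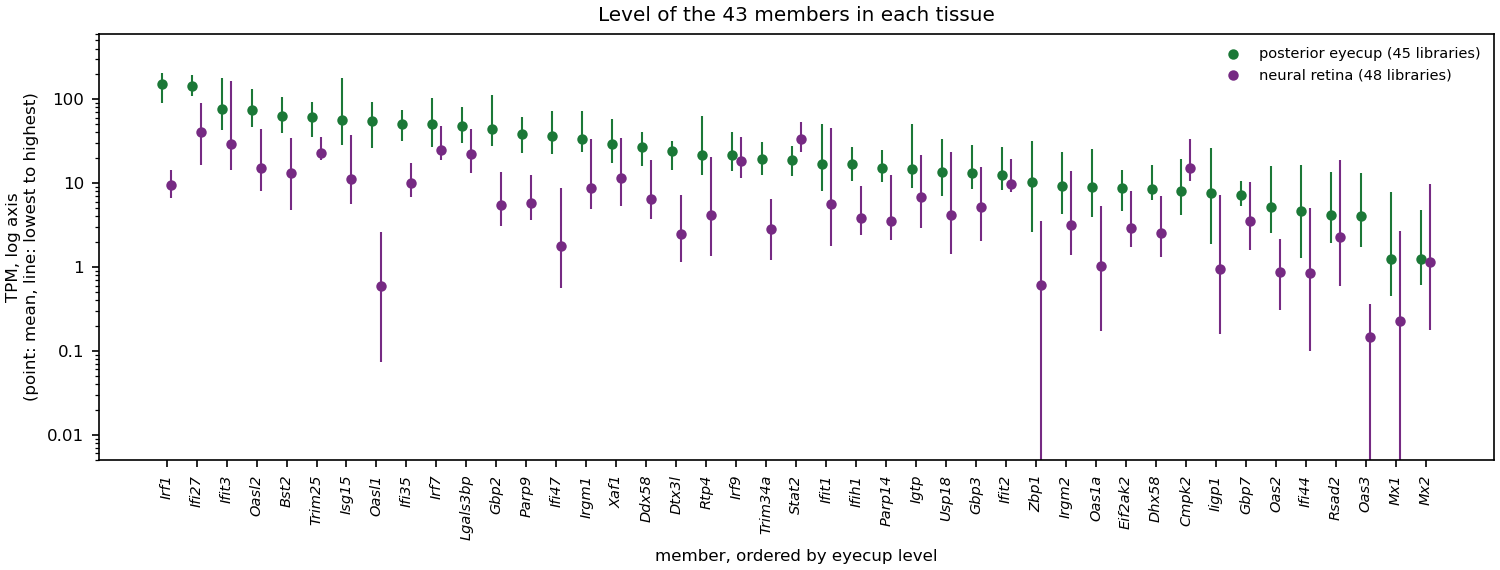
Deposited TPM (log axis) of the 43 genes in eyecup (green, 45 libraries) and retina (purple, 48 libraries); points are means, lines run from the lowest to the highest library, and lines that reach the lower edge include a 0. Irf1 and Ifi27 lie near the top in eyecups at 152 and 143 TPM, and Stat2 and Cmpk2 are the genes with a higher mean in retina.

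Between 3 and 17 months, most of the genes rose in knock-in retinas. Of the 40 tested, 34 were called higher at 17 months and 0 lower, against 9.74% of all tested genes called higher and 9.01% lower. The median log2 change was 0.96 over the 40 genes and 0.01 over all genes. In wild-type retinas 2 of 40 were called higher, Ifi27 and Stat2, against 9.89% of all tested genes, and the median log2 change was 0.16, or 0.29 without wild-type library 6 of 3 months and 0.10 without wild-type library 5 of 17 months. The difference between these changes, tested as a genotype-by-age interaction with edgeR, passed for 0 of 17240 genes, which is 0% of all tested, and for 0 of the 40. At an unadjusted p under 0.05 it reached 19 of the 40, with 0 called by DESeq2 or limma voom. Its median was 0.69, against -0.0014 over all genes. The share of all genes under that unadjusted p was not counted, here or below, so such counts have no background beside them. The age change of the genotypes was therefore not shown to differ, although the interaction was above 0 for 40 of 40 genes, which share their libraries. It was above 0 for 34 of 40 without the libraries that stood apart. The count at an unadjusted p under 0.05 was 9 without knock-in library 5 of 17 months and 11 without wild-type library 6 of 3 months.

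The smallest p-values in knock-in retinas belonged to Ifi27, Oas2, Ddx58, Xaf1, Gbp2 and Trim34a. Ifi27 spanned 6.1 to 12.8 CPM at 3 months (median 7.73), 9.72 to 25.4 CPM at 9 months (median 15) and 14.6 to 24.6 CPM at 17 months (median 18.1) in knock-in retinas. In wild-type retinas it spanned 5.51 to 16 CPM (median 7.9), 9.06 to 12.9 CPM (median 10.1) and 10.8 to 29.3 CPM (median 15.4) at those ages. The 3- and 17-month ranges were apart in knock-in mice and overlapped in wild type through library 6 of 3 months. Ifi27 rose by 1.17 ± 0.20 log2 units in knock-in (adjusted p = 4.88e-05) and by 0.96 ± 0.20 in wild-type retinas (adjusted p = 0.00064).

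Oas2 makes the short oligoadenylates that switch on RNase L. In knock-in retinas its range was 0.483 to 1.17 CPM at 3 months (median 0.749), 0.537 to 2.88 CPM at 9 months (median 1.5) and 1.5 to 3.17 CPM at 17 months (median 1.92). The wild-type ranges were 0.834 to 1.19, 0.808 to 1.73 and 0.708 to 2 CPM. Knock-in libraries of 17 months all lay above those of 3 months, whereas the wild-type ranges overlapped. The change was 1.29 ± 0.23 in knock-in (adjusted p = 5.51e-05) and 0.53 ± 0.23 in wild-type retinas (adjusted p = 0.0949). Oas1a and Oasl1 of that family changed by 1.85 ± 0.39 and 1.32 ± 0.40 in knock-in retinas, and all 4 tested family genes were called.

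Among the sensors, 4 of 5 were called. Ddx58, the RNA helicase RIG-I, spanned 6.55 to 8.46 CPM at 3 months (median 7.65), 8.48 to 19.3 CPM at 9 months (median 10.1) and 9.14 to 27.9 CPM at 17 months (median 12.9) in knock-in retinas. In wild-type retinas the ranges were 6.01 to 10.5, 7.8 to 10.7 and 9.18 to 12.2 CPM. The knock-in ranges of 3 and 17 months did not overlap and those of wild type did. Its change was 0.93 ± 0.16 in knock-in (adjusted p = 5.58e-05) and 0.42 ± 0.16 in wild-type retinas (adjusted p = 0.0627). Ifih1, the sensor MDA5, changed by 0.58 ± 0.17 and Trim25, a ubiquitin ligase partner of RIG-I, by 0.24 ± 0.05 in knock-in retinas. Eif2ak2, the kinase PKR, was not called (0.44 ± 0.19, adjusted p = 0.0981).

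Gbp2, a guanylate-binding protein of the GTPase group, had 3.42 to 5.23 CPM at 3 months, 3.93 to 12.8 CPM at 9 months and 6 to 14.5 CPM at 17 months in knock-in retinas. In wild-type retinas it had 3.34 to 8.63, 3.42 to 6.26 and 5.27 to 8.33 CPM. Again the knock-in ranges of 3 and 17 months were apart, and the wild-type ranges overlapped through library 6 of 3 months, at 8.63 CPM. Gbp2 rose by 1.08 ± 0.20 in knock-in retinas (adjusted p = 0.000125), one of 7 of 8 GTPases called. The immunity-related GTPases Irgm1, Irgm2, Igtp and Iigp1, which act on the membranes of intracellular parasites in mice, changed by 0.97, 1.01, 0.83 and 1.19. Gbp7 was not called (0.47 ± 0.20).

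Xaf1, an antagonist of the apoptosis inhibitor Xiap, had 1.91 to 2.76 CPM at 3 months, 2.38 to 8.53 CPM at 9 months and 3.43 to 11.2 CPM at 17 months in knock-in retinas. In wild-type retinas it had 2.26 to 5.16, 2.58 to 3.92 and 3.19 to 5.34 CPM. It rose by 1.26 ± 0.22 in knock-in (adjusted p = 6.58e-05), against 0.18 ± 0.22 in wild-type retinas (adjusted p = 0.605). Trim34a, a tripartite motif protein, had 1.08 to 2.4, 2.15 to 5.97 and 2.41 to 5.38 CPM at the 3 ages in knock-in retinas, and 1.59 to 4.72, 1.56 to 2.79 and 1.94 to 2.72 CPM in wild type. Its change was 1.03 ± 0.20 in knock-in retinas (adjusted p = 0.00018) and -0.03 ± 0.19 in wild type (adjusted p = 0.94). The largest fold changes in knock-in retinas were those of Ifit1 (1.96 ± 0.45), Oas1a (1.85 ± 0.39), Mx2 (1.75 ± 0.43), Usp18 (1.69 ± 0.37) and Rsad2 (1.64 ± 0.45). They were 1.01, 1.10, 0.76, 0.87 and 0.61 without the libraries that stood apart, where Oas2 was at 1.09.

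Isg15, a ubiquitin-like protein that Usp18 removes from its targets, rose by 0.94 ± 0.28 in knock-in retinas. Isg15 spanned 1.64 to 4 CPM at 3 months, 1.69 to 6.93 CPM at 9 months and 1.98 to 9.05 CPM at 17 months in knock-in retinas, so its ranges overlapped. Of this group 5 of 6 were called, with Cmpk2 the exception (0.37 ± 0.14). The transcription factors moved less, by 0.31 ± 0.06 for Stat2, 0.47 ± 0.11 for Irf1 and 0.47 ± 0.12 for Irf7, and Irf9 was not called (0.35 ± 0.13, adjusted p = 0.0513). Stat2 had 49.5 to 63.5, 58.9 to 79 and 63.5 to 97.4 CPM at the 3 ages in knock-in retinas, and 46.7 to 61.4, 61.6 to 68 and 57.1 to 67.8 CPM in wild type. Its wild-type change was 0.23 ± 0.06 (adjusted p = 0.00821). Of the Ifit genes Ifit1 and Ifit3 were called and Ifit2 was not (0.26 ± 0.12), and of the other genes 9 of 10 were called, all but Ifi44 (1.03 ± 0.41, adjusted p = 0.0718).

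**Figure D4:**
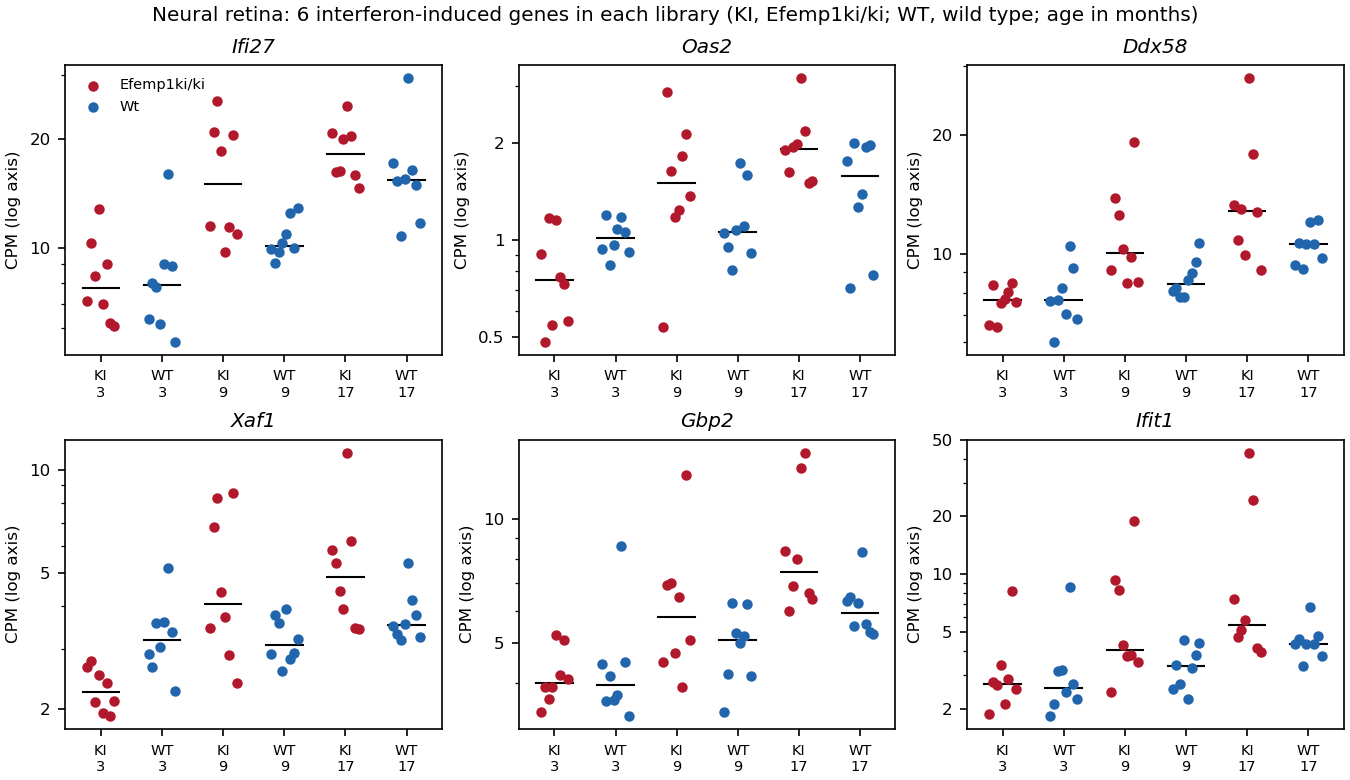
CPM (log axis) in each retina library for 6 genes, with knock-in (KI, red) left of wild type (WT, blue) at 3, 9 and 17 months and lines at group medians. Ifi27, Oas2, Ddx58, Xaf1 and Gbp2 show no overlap between the knock-in groups of 3 and 17 months, and Ifit1 has knock-in libraries at 42.9 and 24.3 CPM at 17 months.

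In 12 of the 40 genes every knock-in retina library of 17 months lay above every one of 3 months, against 1.7% of all tested genes. These were Bst2, Ddx58, Gbp2, Ifi27, Ifi35, Lgals3bp, Oas2, Oasl2, Stat2, Trim34a, Usp18 and Xaf1. In wild-type retinas 0 of 40 did, against 1.26% of all tested genes. There Ifi27, Gbp2 and Ifit1 overlapped only through library 6 of 3 months. In the other wild-type libraries of 3 months these genes were at most 9.04, 4.5 and 3.17 CPM. Their lowest wild-type values at 17 months were 10.8, 5.27 and 3.35 CPM. Over both genotypes, 12 of 40 were called higher at 9 than at 3 months (17.4% of all genes) and 5 of 40 at 17 than at 9 months (12.7%). Stat2 (0.23 ± 0.04), Ifi27 (0.66 ± 0.14), Xaf1 (0.56 ± 0.16) and Oas2 (0.58 ± 0.17) led the earlier step. Without the libraries that stood apart, 27 were called in the earlier step, with all 12 kept, and the median change was 0.31 in both fits. The later step comprised Trim25 (0.16 ± 0.04), Irf7 (0.27 ± 0.08), Ifi27 (0.41 ± 0.14), Gbp2 (0.37 ± 0.14) and Ddx58 (0.29 ± 0.11). Its median was 0.26, and 0.05 without the libraries that stood apart, where these 5 remained and Ifit2 was called lower.

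**Figure D5:**
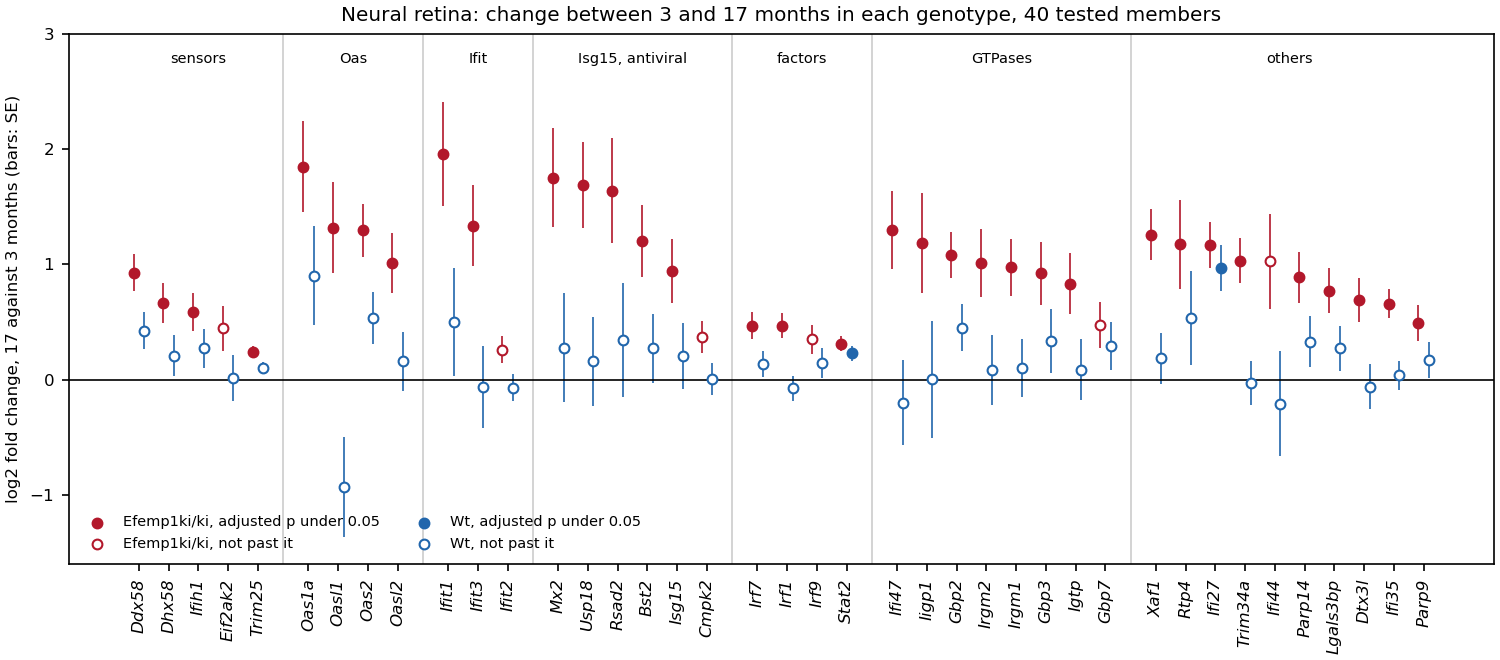
Log2 fold change between 17 and 3 months in retinas for the 40 tested genes, with knock-in (red) left of wild type (blue) and bars of 1 SE; filled points passed an adjusted p of 0.05. In knock-in retinas 34 points are filled, and in wild type only Ifi27 and Stat2 are.

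The count in knock-in retinas rested in part on 1 library. Without library 5 of 17 months, 22 of the 34 calls remained. Without all libraries that stood apart, 25 of the 34 remained and none was gained, with a median change of 0.52. Dtx3l, Ifi47, Ifih1, Igtp, Iigp1, Isg15, Oasl1, Parp9 and Rtp4 were the calls lost. In that fit Ifi27 changed by 1.01, Oas2 by 1.09, Xaf1 by 0.91, Gbp2 by 0.80 and Ddx58 by 0.63. In wild-type retinas the count was 7 without the libraries that stood apart, adding Ddx58, Gbp2, Gbp3, Ifit1 and Oas1a, and 5 without library 6 of 3 months alone. The median interaction was 0.20 without the libraries that stood apart.

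Other markers moved with age in the same retinas. Microglia and macrophage markers, 14 of 14 detected with none at 0 in any library, summed to 99.3 to 123 CPM at 17 months and 68 to 83.8 CPM at 3 months in knock-in retinas. In wild-type retinas the sums were 88.1 to 120 CPM at 17 months and 75.4 to 84.3 CPM at 3 months. Of these markers 10 were called higher with age in knock-in and 9 in wild-type retinas, against 9.74% and 9.89% of all tested genes. Pigment epithelium markers, 8 of 8 detected with none at 0, summed to 231 to 413 CPM at 17 months and 229 to 260 CPM at 3 months in knock-in retinas, and to 238 to 352 CPM and 245 to 332 CPM in wild type. Otx2 made up most of these sums. Of the 8 markers, 6 were called higher with age in knock-in retinas (median 0.98) and 0 in wild type (median 0.07), against the same shares of all genes. The summed level was 238 CPM in knock-in library 5 of 17 months and 352 CPM in library 6. The mean log2 CPM of the markers, in which each counts alike, was 2.53 and 4.16 in these libraries. The part of these cells in the rise was not tested.

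Between genotypes, few of the genes differed in the retina. At 3 months 0 of 40 were called by edgeR, against 1.83% of all genes, with 3 at an unadjusted p under 0.05, 0 called by DESeq2 and 1 by limma voom. The smallest p-values there were of Ifi35 (-0.31 ± 0.13), Trim34a (-0.48 ± 0.21) and Xaf1 (-0.52 ± 0.23), and the median log2 difference was -0.06. Wild-type library 6 was the highest of its group for all 3, and without it the median was 0.09. Without knock-in library 7 the median was -0.18, and without knock-in library 3 it was -0.02, with 1 gene at an unadjusted p under 0.05. At 9 months 0 of 40 were called by edgeR, against 0% of all genes. An unadjusted p under 0.05 was reached by 23, with no share of all genes to set beside it, and the median difference was 0.56. Without knock-in library 8 of 9 months these were 10 and 0.31. DESeq2 and limma voom also called 0. Trim25 had 43.1 to 54.2 CPM in knock-in and 39.5 to 46.3 CPM in wild-type retinas of 9 months (0.18 ± 0.05, adjusted p = 0.722), with ranges that overlapped. Trim34a differed by 0.62 ± 0.19 and Gbp3, a guanylate-binding protein, by 0.83 ± 0.27, neither called.

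At 17 months 3 of 40 were called higher in knock-in retinas and 0 lower, against 0.18% of all genes called higher and 0.226% lower, and the median difference was 0.53, or 0.31 without knock-in library 5. Trim25 had 47.5 to 66.6 CPM (median 52.8) in knock-in and 43.1 to 51.6 CPM (median 46.3) in wild-type retinas, a difference of 0.21 ± 0.05. Oasl1 had 0.267 to 2.21 CPM (median 0.682) in knock-in and 0.208 to 0.531 CPM (median 0.266) in wild type, a difference of 1.65 ± 0.39. Ifi47, an immunity-related GTPase, had 0.668 to 4.67 CPM (median 1.32) in knock-in and 0.373 to 1.32 CPM (median 0.683) in wild type, a difference of 1.37 ± 0.33. The adjusted p was 0.0415 for all 3, and in each the ranges overlapped. The calls were not stable: 0 remained without knock-in library 3, 4, 5, 6 or 8, or without wild-type library 1, 2, 4, 5 or 6 of 17 months, 1 without knock-in library 2, and 2 without knock-in library 1. DESeq2 called 7, of which Trim25 was shared, and its share of all genes is not given here. Without the libraries that stood apart, 0 were called, 11 had an unadjusted p under 0.05 and the median difference was 0.22.

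Averaged over the ages, 6 of 40 were called higher in knock-in retinas, against 2.55% of all genes. Trim25 differed by 0.16 ± 0.03 (adjusted p = 0.00186) and Stat2 by 0.15 ± 0.04 (adjusted p = 0.0104). Ifi47 differed by 0.71 ± 0.21, Mx2 by 0.88 ± 0.26, Irf9 by 0.25 ± 0.07 and Parp14, a mono-ADP-ribosyltransferase, by 0.43 ± 0.13. Mx2 had 0.266 to 2.27, 1.19 to 5.22 and 1.06 to 11.9 CPM at the 3 ages in knock-in retinas, and 0.379 to 1.99, 0.741 to 1.36 and 0.778 to 1.46 CPM in wild type. Irf9 had 14.5 to 20, 17.9 to 30.2 and 16.7 to 33.6 CPM in knock-in, and 12.8 to 27.6, 15.2 to 20.1 and 14.7 to 21.5 CPM in wild type. Ranges overlapped at every age for both. The count was 2 without any of knock-in library 5 of 17 months or knock-in libraries 3 or 8 of 9 months, Trim25 and Stat2 in each case, and it was 14 without wild-type library 6 of 3 months. Without all libraries that stood apart it was 4, with Trim25, Stat2 and Irf9 kept (0.14, 0.11 and 0.23) and Gbp3 gained. Over the ages 7 of 7 tested lens markers were also called higher in knock-in retinas (median 4.03). Their sums, over 10 of 12 listed markers, reached 825, 1140 and 139 CPM in knock-in retinas of 3, 9 and 17 months and 24.5, 48.9 and 2.55 CPM in wild type, and Crygc was at 0 in 43 of 48 retina libraries. Library 5 of knock-in retinas at 17 months had a lens sum of 4.42 CPM, and the part of lens RNA was not tested.

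In the eyecup few of the genes were called between genotypes or between 17 and 3 months. The edgeR fit called 0 of 43 between genotypes at 3, 9 and 17 months, against 3.07%, 0.00555% and 0.0611% of all genes, and 0, 0 and 1 of the 43 had an unadjusted p under 0.05. DESeq2 also called 0 at each age, while limma voom called 4 at 3 months, 0 at 9 months and 1 at 17 months. With 1 library left out the median difference ran from -0.03 to 0.10 at 3 months, from -0.10 to 0.18 at 9 months and from -0.01 to 0.19 at 17 months. At 9 months it was below 0 only without knock-in library 7. Averaged over the ages 1 of 43 was called higher in knock-in eyecups, Oasl1 (0.39 ± 0.12, adjusted p = 0.0403), against 1.12% of all genes. Oasl1 had 71.6 to 97.3, 32.7 to 122 and 45.1 to 102 CPM at the 3 ages in knock-in eyecups, and 53.3 to 78.9, 35.3 to 81.4 and 34.4 to 79.9 CPM in wild type, with overlap at each age. Its call was lost without any of 12 of the 45 libraries, among them knock-in library 7 of 9 months, and with an offset for GC content per library. Oasl1 has the highest GC content of the 43 genes, 56.3%. The slope of a library's log2 levels on GC content, per 10% GC, differed between the eyecup groups of 3 months. It ran from 0.0471 to 0.815 in knock-in and from -0.0991 to -0.0288 in wild-type eyecups of that age.

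With age 1 of 43 was called higher in knock-in eyecups, against 2.61% of all genes, and 2 of 43 in wild-type eyecups, against 2.73%. Lgals3bp, a secreted glycoprotein that binds galectins, had 38.8 to 56.1 CPM at 3 months, 41.1 to 100 CPM at 9 months and 60.6 to 99.3 CPM at 17 months in knock-in eyecups. In wild-type eyecups it had 39.1 to 72.7, 33.2 to 74.4 and 43.3 to 103 CPM. The knock-in ranges of 3 and 17 months did not overlap, which 0.644% of all genes shared, and those of wild type did. Lgals3bp rose by 0.78 ± 0.18 in knock-in (adjusted p = 0.00754) and by 0.74 ± 0.19 in wild-type eyecups (adjusted p = 0.0176). Cmpk2 was the other call in wild type (0.64 ± 0.20, adjusted p = 0.0483), with 11 to 15.5 CPM at 17 months and 6.59 to 11.4 CPM at 3 months. Both wild-type calls were lost without library 9 of 3 months, and that of Cmpk2 also without libraries 2, 6 or 7 of 3 months or 2, 4, 7 or 8 of 17 months. Without wild-type library 6 of 17 months 4 were called, 2 higher and 2 lower. In knock-in eyecups 3 were called, all higher, without library 8 of 3 months or library 4 of 17 months. Without the libraries that stood apart, 5 genes were called in knock-in and 5 in wild-type eyecups. The interaction was called for 0 of 43 by edgeR, DESeq2 and limma voom, against 0% of all genes, with 0 at an unadjusted p under 0.05.

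Over both genotypes, 6 of 43 were higher in eyecups at 9 than at 3 months, against 5.49% of all genes, and 1 of 43 (Lgals3bp, 0.49 ± 0.12) at 17 than at 9 months, against 4.3%. The 6 were Ifi44 (1.04 ± 0.27), Iigp1 (1.14 ± 0.30), Mx1 (0.99 ± 0.28), Igtp (0.65 ± 0.18), Cmpk2 (0.44 ± 0.14) and Rsad2 (0.69 ± 0.22). Iigp1 had 1.05 to 9.21 CPM at 3 months and 5.21 to 24.5 CPM at 9 months in knock-in eyecups, and 5.34 to 11 and 5.83 to 37 CPM in wild type, all overlapping. Iigp1 and Ifi44 have the lowest GC content of the 43 genes, 39.3% and 40.4%. Both had their lowest eyecup value in knock-in library 4 of 3 months, which had the steepest GC slope, 0.815. Slopes ran from -0.259 to 0.107 in eyecups of 9 months. No age comparison was fitted with a GC offset, so the part of GC content was not tested. Without the libraries that stood apart 6 were again called, with Cmpk2 lost and Oasl1 called lower.

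The change with age, averaged over genotypes, was lower in eyecup than in retina for 14 of 43 genes and higher for 0, against 9.31% of all genes called lower and 9.81% higher. Ddx58 differed most clearly, by -0.93 ± 0.16 (adjusted p = 1.42e-05), and Ifi27 by -0.95 ± 0.17 (adjusted p = 3.18e-05). Ifi27 had eyecup medians of 58.9 and 63.8 CPM at 3 and 17 months in knock-in mice and 55.2 and 62.1 CPM in wild type. The other 12 were Ifi35, Irf1, Dtx3l, Trim34a, Xaf1, Parp14, Ifih1, Parp9, Trim25, Oasl2, Oas1a and Gbp2. Without the libraries that stood apart 7 were lower and 2, Cmpk2 and Ifit2, were higher.

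The rest of the pathway was read from lists that hold none of the 43 genes. No interferon gene passed the filter in either tissue, and 9 were found in the tables. Ifna13 had reads in 44 of 45 eyecup libraries, 265 in all and at most 15 in 1 library, and 0 in the retina. Ifnk had reads in 29 of 45 eyecup and 19 of 48 retina libraries, at most 3 in an eyecup and 4 in a retina library. Ifnb1 and Ifng had at most 1 and 3 reads in any eyecup library and 0 and 2 in any retina library, and the other 5 had at most 3. Over all tested genes, 9.74% were called higher with age in knock-in and 9.89% in wild-type retinas. Of 17 receptor and signalling genes, 6 rose with age in knock-in retinas, among them Stat3 (0.34 ± 0.04), Tyk2 (0.30 ± 0.06) and Socs3 (0.41 ± 0.10), a feedback inhibitor. In wild-type retinas 4 rose, among them the same 3 (0.18 ± 0.04, 0.29 ± 0.06 and 0.40 ± 0.10), and 1 fell, Ifngr1 (-0.15 ± 0.04). Of 15 upstream sensing genes, 1 was called higher in each genotype, which is no more than those shares of all genes. These were Tmem173 (the adaptor STING) in knock-in (0.65 ± 0.18) and Myd88 in wild-type retinas (0.21 ± 0.07).

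Genes of MHC class I presentation, which interferon gamma also induces, rose with age in retinas of both genotypes. The calls were 11 of 15 in knock-in and 9 of 15 in wild type, against 9.74% and 9.89% of all tested genes. H2-K1 had 49.3 to 64.3 CPM at 17 months and 28 to 33.1 CPM at 3 months in knock-in retinas, and 44 to 59.5 and 27.9 to 40.8 CPM in wild type. The 17-month range lay above the 3-month range in each genotype, with changes of 0.96 ± 0.07 and 0.66 ± 0.07. Tap2, a peptide transporter subunit, changed by 0.78 ± 0.08 and 0.51 ± 0.08. The only interferon-induced chemokine tested in the retina, Cxcl10, was called in knock-in (1.92 ± 0.68, adjusted p = 0.0428) and had 0.0762 to 4.52 CPM at 17 months and 0 to 1.27 CPM at 3 months. Its highest value was in library 5, and the next was 1.55 CPM. MHC class II genes were called for 0 of 7 in knock-in and 1 of 7 in wild-type retinas. In eyecups, 3 of 4 chemokines rose with age in knock-in mice, Ccl2 (1.98 ± 0.41), Cxcl10 (1.56 ± 0.41) and Ccl7 (1.63 ± 0.48), and 0 of 4 in wild type (0.89 ± 0.42, 1.26 ± 0.44 and 0.68 ± 0.49). Of all genes tested in eyecups, 2.61% were called higher with age in knock-in and 2.73% in wild-type mice. The genotype-by-age interaction in eyecups was called for 0 of 18003 genes.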

How the data were processed

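Poly(A) RNA libraries were made from column-purified, DNase-treated total RNA with the TruSeq Stranded mRNA kit, per the labels' protocols. The submitters' processing notes name GRCm38.p4, and no source used here gives the aligner, counting tool or strand setting. Estimated counts per gene were deposited by the authors; 79.7% of values were whole (within 0.01), and all were rounded before testing. A second deposited table, named TPM, sums to 1000000 over protein-coding genes only and was treated as a deposited score, used for levels between genes and in 1 alternative (limma on log2(TPM + 1), genes over 0.5). In each file 1 column matched no sample and was not used here.

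Genes were filtered with filterByExpr (18003 in eyecup, 17240 in retina, 19210 jointly), scaled by TMM and fitted over all groups of a tissue with edgeR 4.0.16 (robust quasi-likelihood) in R 4.3.3. Adjusted p-values cover all genes tested. SE values come from the F statistic, and CPM are TMM-scaled. No pair of libraries within a group was closer than a chi-square of 2.29 per degree of freedom, so none was a copy. The alternatives used DESeq2 1.42.0 and limma 3.58.1. By rule, all 43 genes may be named; values per group are given for up to 6 called genes of smallest p per comparison, for the 3 of smallest p where none was called, and for the 3 most abundant per tissue. From the other lists up to 3 called genes of smallest p are named; values of other genes, and the interferon genes, Ifngr1 and Crygc, were chosen after they were seen. The genes and lists were chosen with earlier results of these data known. The fits were tested on simulated data.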

Additional observations from a re-analysis of the deposited data

Results flagged for a closer look

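In 4 of the 12 groups the mean log2 CPM of the tested genes had 1 library far from the rest by Dixon's criterion, which chance alone meets in about 1 in 20 groups. These were knock-in eyecups of 9 months (library 7 at 5.69), knock-in retinas of 3 months (library 7 at 2.39), wild-type retinas of 17 months (library 5 at 2.72) and wild-type retinas of 3 months (library 6 at 2.84).

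The age change differed between eyecup and retina in the joint edgeR test for 14 genes, all lower in eyecup. The log2 differences, eyecup minus retina, were -0.93 for Ddx58, -0.95 for Ifi27, -0.58 for Ifi35, -0.54 for Irf1, -0.59 for Dtx3l, -0.63 for Trim34a, -0.64 for Xaf1, -0.58 for Parp14, -0.51 for Ifih1, -0.50 for Parp9, -0.29 for Trim25, -0.61 for Oasl2, -0.94 for Oas1a and -0.57 for Gbp2.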

How the results depend on the processing

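Leaving out 1 library at a time moved 46 of 308 counts of called genes by more than 1.5 times. These counts join genes called higher and lower. Counts then ran from 22 to 36 for age in knock-in retinas, 2 to 5 for age in wild-type retinas, 0 to 3 for genotype in retinas of 17 months, 2 to 14 for genotype over the ages in retinas, 1 to 3 for age in knock-in eyecups, 0 to 4 for age in wild-type eyecups and 0 to 1 for genotype over the ages in eyecups. Without all 8 libraries that stood apart, an alternative chosen after seeing the data, counts were 25 and 7 for age in knock-in and wild-type retinas, 0 for genotype at 17 months, 27 for the step to 9 months in retinas, 5 and 5 for age in knock-in and wild-type eyecups, and 9 for the tissue difference in age change. With limma voom the counts were 4, 0 and 1 for genotype in eyecups of 3, 9 and 17 months, 13 and 13 for age in knock-in and wild-type eyecups, 1 and 0 for genotype in retinas of 3 and 17 months, and 4 for age in wild-type retinas. With limma on TPM they were 0 for genotype over the ages in eyecups, 5 for age in wild-type eyecups, 5 for genotype in retinas of 17 months, 9 over the ages, and 4 for age in wild-type retinas. With DESeq2 they were 2 and 4 for age in knock-in and wild-type eyecups, 10 for the step to 9 months in eyecups, and 7 and 12 for genotype in retinas of 17 months and over the ages. With no filter on low counts they were 1 for age in wild-type eyecups and 0 and 2 for genotype in retinas of 17 months and over the ages. A GC offset gave 0 and 10 for genotype over the ages in eyecup and retina. For genotype in eyecups of 9 months, 34 of 43 genes were above 0 in the reported fit and 9 of 43 without the libraries that stood apart. Mx1, the gene of the second smallest p there, was at 0.64 in the reported fit and -0.33 without the libraries that stood apart, -0.096 with limma voom, and -0.34 (without knock-in library 7) to 0.76 (without library 6) with 1 library left out. The cause of these shifts was not tested. The number of all genes called also changed between fits. For age in wild-type eyecups it ran from 298 to 2199 with 1 library left out. Counts from the other fits, here and above, are given without that number, so a larger count may go with more calls over all genes.

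Replicate numbers were not treated as pairs, since not every same-numbered pair of genotypes correlated above 0.1, a rule that cannot exclude pairing. In eyecups of 9 months the median was 0.288 for same numbers and -0.0449 for different ones, with 3 of 7 best matched to their own number. In the other comparisons the same-number median ran from -0.215 to 0.0458. Eyecup and retina libraries were not compared in this way. With the replicate number as a block, 33 of the 34 age calls in knock-in retinas remained, and the counts were 1 for age in wild-type eyecups and 3 for the step to 17 months in retinas. Depth limits Zbp1, Mx1 and Oas3 in retinas, where they had at most 270 reads over all 48 libraries.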
